A study of Gallus gallus with 26 samples.

Results

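The genes described here are 10 chicken genes of antigen presentation, taken by name from a fixed list: the class I heavy chains BF1 and BF2 with beta-2 microglobulin (B2M), the peptide transporter subunits TAP1 and TAP2, the class II beta chains BLB1 and BLB2 with the invariant chain CD74, and the beta chains of the DM peptide editor, DMB1 and DMB2. All 10 were among the 25079 genes of the messenger RNA tables, and 9 were among the 16130 genes that passed the filter on low counts. DMB1 did not pass it and was not tested.

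Major histocompatibility complex (MHC) molecules carry peptides to the cell surface, where T cells inspect them. Nearly all nucleated cells make class I molecules, which pair a heavy chain with B2M and are loaded with peptides pumped into the endoplasmic reticulum by TAP. Class II molecules belong mainly to B cells, macrophages and dendritic cells, are escorted by CD74 and exchange peptides with the help of DM. In chicken most of these genes sit in a compact region, the B locus, in which BF2 is known as the major and BF1 as the minor class I gene. The ovaries of hens develop tumours spontaneously.

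The study profiled messenger RNA and small RNA of chicken ovarian tissue in 3 groups, normal ovary (4 libraries), early-stage ovarian cancer (4 libraries) and late-stage ovarian cancer (5 libraries). The labels give the tissue alone, with no strain, age, treatment or histological type. Libraries are named by group and by the number in their sample code, and the messenger RNA values alone are used. Since no label states that the codes are separate hens, the p-values describe the spread between these samples, which may be partly technical. Library totals lay between 16273700 and 20118600 counts. As a check of the tissue label, all 9 listed ovarian follicle markers were in the table and 8 passed the filter (INHA did not). They summed to 1039 to 1558 CPM (counts scaled to library size) in normal ovary, 936 to 1696 in early-stage and 1306 to 1396 in late-stage cancer.

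**Figure D1:**
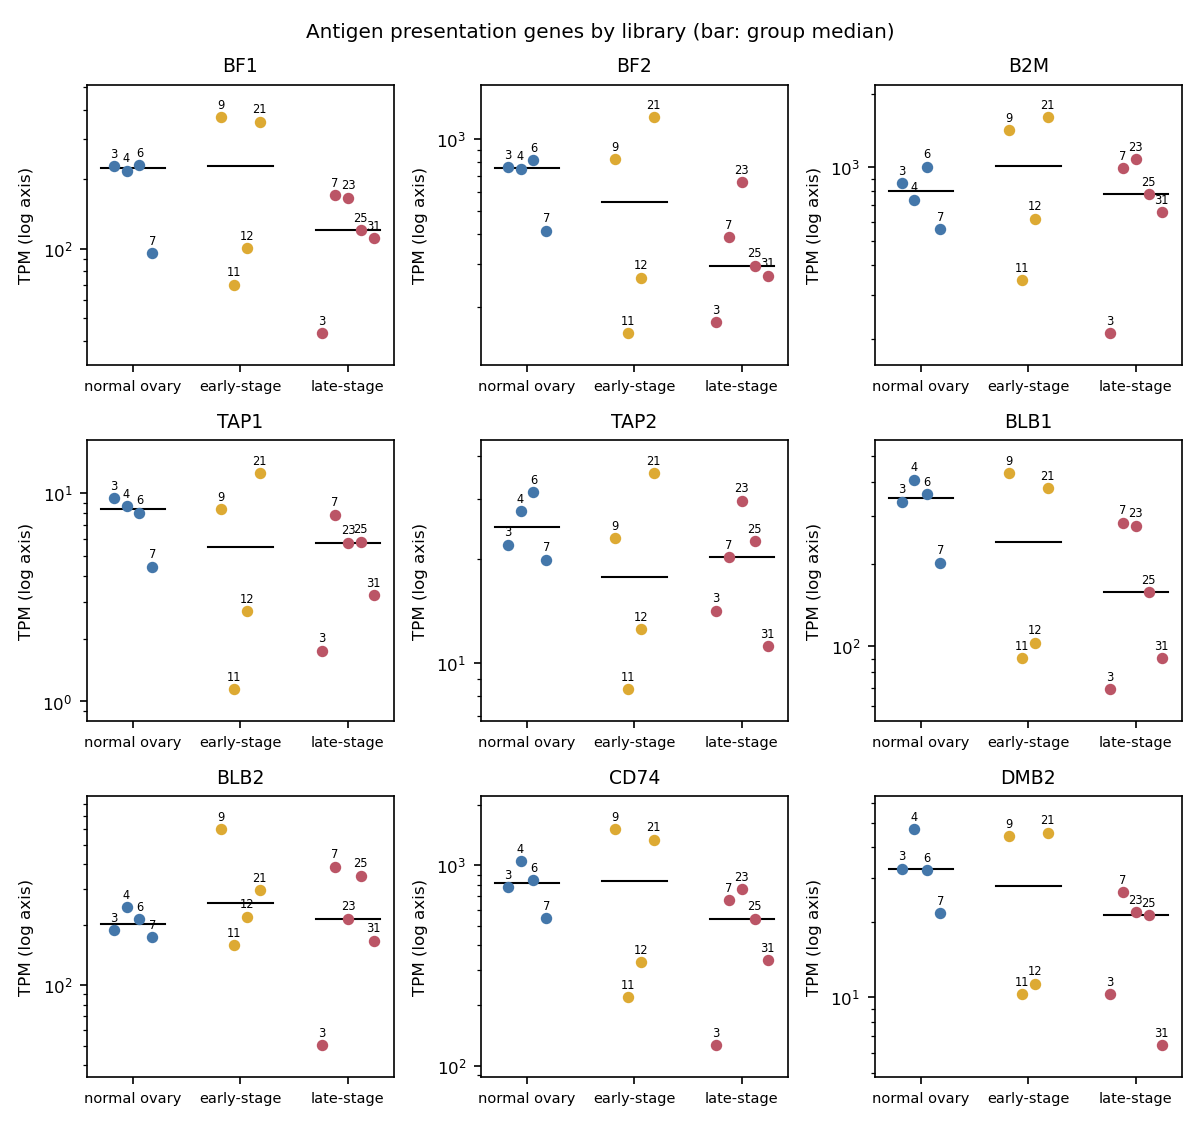
TPM (log axis) of the 9 tested genes in each library, by group; points are libraries with their code number and the bar is the group median. Early 9 and early 21 lie above early 11 and early 12 in all 9 genes, and late 3 is the lowest library in 5 of them.

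Levels between genes were compared as TPM, a measure scaled for gene length and library total that the authors deposited. In normal ovary the order by mean TPM was CD74 (806 ± 209), B2M (792 ± 189), BF2 (685 ± 183), BLB1 (327 ± 88.4), BLB2 (205 ± 31.4), BF1 (193 ± 65.1), DMB2 (33.5 ± 10.5), TAP2 (25.2 ± 5.20), TAP1 (7.66 ± 2.23) and DMB1 (0.408 ± 0.231; SD, n = 4). CD74, B2M and BF2 differed by less than the larger of their SDs, as did BLB2 and BF1, and DMB2 and TAP2. The 10 genes together made up 2039 to 3544 TPM in normal ovary, 1060 to 5309 in early-stage cancer and 699 to 3218 in late-stage cancer, so the range of each cancer group extended on the low side below all normal libraries.

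BF2, the major class I heavy chain, stood at 762, 749, 815 and 414 TPM in normal 3, 4, 6 and 7, at 822, 156, 264 and 1229 TPM in early 9, 11, 12 and 21, and at 172, 390.2, 658, 296 and 269.6 TPM in late 3, 7, 23, 25 and 31. Its 3 highest normal libraries lay above all 5 late libraries, normal 7 lay inside the late range, and the 4 early libraries lay on both sides of the normal range. BF1, the minor heavy chain, had 228, 218, 230.1 and 95.6 TPM in the normal libraries, 373, 70.0, 101 and 355 TPM in the early libraries and 43.2, 171, 166, 120.2 and 111 TPM in the late libraries, in the same library order. Again normal 7 was the one normal library that overlapped with late-stage cancer. These are whole-tissue values, in which fewer cells of a type and less RNA per cell cannot be told apart.

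B2M, the light chain that every class I molecule needs, is encoded outside the B locus. Its levels were 861, 739, 1007 and 560.4 TPM in normal 3, 4, 6 and 7, 1416, 347, 618 and 1606 TPM in early 9, 11, 12 and 21, and 211, 991, 1083, 776 and 656 TPM in late 3, 7, 23, 25 and 31. All late libraries other than late 3 lay near or within the normal range, and late 3 was the lowest library of the series.

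The transporter subunits were read at far lower levels. TAP1 had 9.46, 8.67, 8.08 and 4.43 TPM in normal ovary, 8.36, 1.15, 2.72 and 12.5 TPM in early-stage and 1.75, 7.89, 5.79, 5.86 and 3.24 TPM in late-stage cancer. These values rested on 29 to 444 counts per library. TAP2 had 22.1, 27.6, 31.4 and 19.9 TPM in normal ovary, 23.1, 8.40, 12.6 and 35.7 TPM in early-stage and 14.2, 20.3, 29.6, 22.6 and 11.2 TPM in late-stage cancer. TAP2 exceeded TAP1 in every library, by 2.33-fold to 4.50-fold in normal ovary, 2.76-fold to 7.32-fold in early-stage and 2.57-fold to 8.09-fold in late-stage cancer. The lowest library for both subunits was early 11 and the highest early 21.

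CD74, the invariant chain that escorts class II molecules, stood at 781, 1053, 845 and 546 TPM in normal 3, 4, 6 and 7, at 1521, 219, 329 and 1347 TPM in early 9, 11, 12 and 21, and at 127, 673, 762, 543 and 337 TPM in late 3, 7, 23, 25 and 31. Its highest library exceeded its lowest by 12.0-fold, the widest span of the 9 tested genes. BLB1, a class II beta chain, had 339, 408, 361 and 202 TPM in the normal libraries, 432, 90.3, 103 and 381 TPM in the early libraries and 69.6, 284, 277, 158 and 90.1 TPM in the late libraries. For BLB1, as for BF2, 3 normal libraries stood above all late ones and normal 7 did not.

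BLB2, the other class II beta chain, had 188, 246, 214 and 174 TPM in normal ovary, 600.3, 159, 219 and 297 TPM in early-stage cancer and 50.4, 390.0, 215, 351 and 167 TPM in late-stage cancer. The normal libraries spanned 1.41-fold, with early 9, early 21, late 7 and late 25 above them and early 11, late 3 and late 31 below. DMB2, the more abundant of the DM beta chains, had 32.7, 47.3, 32.3 and 21.8 TPM in normal ovary, 44.3, 10.3, 11.3 and 45.6 TPM in early-stage and 10.3, 26.4, 21.95, 21.3 and 6.45 TPM in late-stage cancer. It was the one tested gene with its highest value in a normal library.

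DMB1 was close to undetected, with 2 to 6 counts in the normal, 0 to 3 counts in the early and 1 to 9 counts in the late libraries. The 0 in early 12 allows a level of up to 0.153 CPM at its depth, for counting error only, and differences between groups were not tested for DMB1. In every library DMB2 was the DM beta chain that carried nearly all counts, with 63 to 515 per library.

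**Figure D2:**
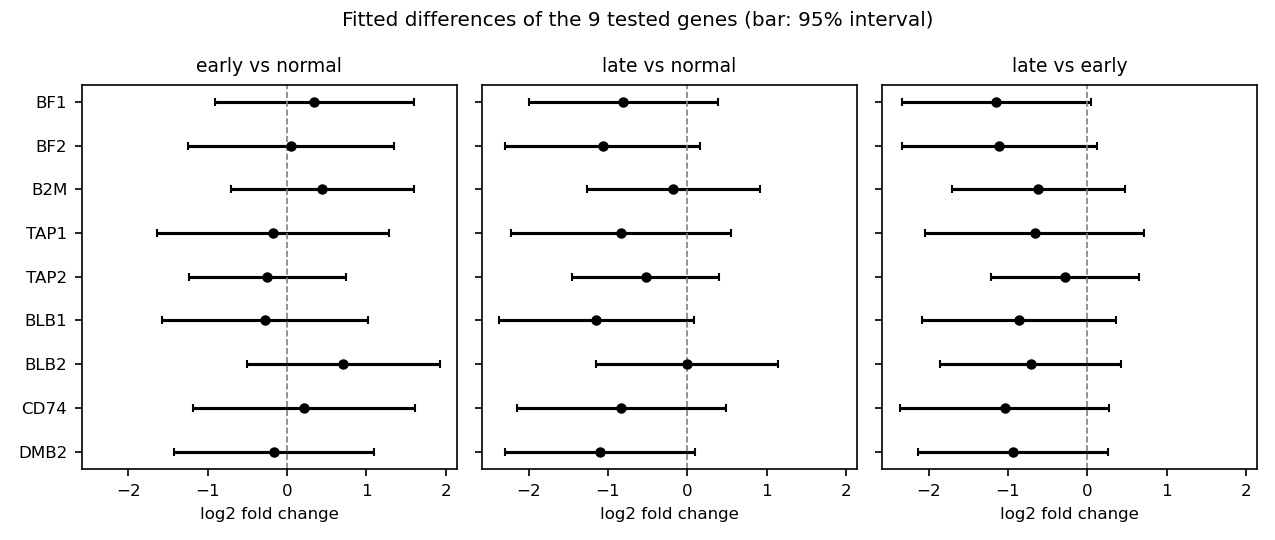
Fitted log2 fold changes of the 9 tested genes in the 3 comparisons, with 95% intervals from edgeR's quasi-likelihood fit. All 9 points of late-stage against normal lie at or below 0, from -1.14 (BLB1) to -0.01 (BLB2), and all 27 intervals cross 0.

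The first comparison asks how late-stage cancer differs from normal ovary. All 9 tested genes had a negative log2 fold change, with a median of -0.83, against 0.01 over all 16130 genes tested, of which 49.1% were lower in late-stage cancer. None of the 9 passed edgeR's quasi-likelihood test with Benjamini-Hochberg adjustment over all genes (threshold 0.05), and neither did any other gene, a background of 0%. At an unadjusted p under 0.05 the count was 0 of 9 genes, against 17.9% of all genes, and 0 of 9 had CPM ranges that did not overlap, against 2.61% of all genes.

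BLB1 had the largest difference, averaging 96.2 ± 53.1 CPM in late-stage cancer and 213 ± 79.0 CPM in normal ovary (SD, n = 5 and 4), a log2 fold change of -1.14 (95% interval -2.37 to 0.08, edgeR adjusted p = 0.298). DMB2 averaged 8.28 ± 4.12 CPM in late-stage cancer and 17.7 ± 7.45 CPM in normal ovary, a log2 fold change of -1.10 (interval -2.30 to 0.10, edgeR adjusted p = 0.305). BF2 averaged 385 ± 196 CPM in late-stage cancer and 804 ± 252 CPM in normal ovary, a log2 fold change of -1.06 (interval -2.29 to 0.17, edgeR adjusted p = 0.330). For these 3 genes 3 of the 4 normal libraries lay above the late-stage range, and normal 7 lay within it.

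TAP1, CD74 and BF1 had log2 fold changes of -0.84, -0.83 and -0.81, and TAP2 of -0.53. B2M and BLB2 had log2 fold changes nearer to 0, of -0.17 (interval -1.27 to 0.92) and -0.01 (interval -1.15 to 1.14). Without late 3, the library that was lowest for 5 of the 9 genes, the value became 0.07 for B2M and 0.26 for BLB2, while the other 7 genes ranged between -0.95 (DMB2) and -0.42 (TAP2). Because the genes varied together between libraries, their 9 negative signs are not 9 separate observations.

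For early-stage cancer against normal ovary, log2 fold changes were of mixed sign, with 5 genes positive, 4 negative and a median of 0.05 (0.01 over all genes tested). The 3 class I genes were positive at 0.44 (B2M), 0.34 (BF1) and 0.05 (BF2), and so were BLB2 at 0.71 and CD74 at 0.21. BLB1 (-0.28), TAP2 (-0.25), TAP1 (-0.17) and DMB2 (-0.16) were negative. None passed the edgeR test (adjusted p of 0.922 to 0.993, background 0%), none had an unadjusted p under 0.05 (background 5.04%), and none had separate CPM ranges (background 2.36%). The widest interval was that of TAP1, -1.64 to 1.29, so a change of more than 2-fold either way was within its error.

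In late-stage against early-stage cancer all 9 genes had a negative log2 fold change, from -1.15 (BF1) to -0.28 (TAP2), with a median of -0.86 (0.00 over all genes tested). BF1 averaged 146 ± 61.0 CPM in late-stage and 324 ± 263 CPM in early-stage cancer (SD, n = 5 and 4), and its interval of -2.34 to 0.04 ended nearest to 0 of the 9. Adjusted p from the edgeR test ran from 0.736 to 0.868, with 0 genes called (background 0%), 0 at an unadjusted p under 0.05 (background 6.34%) and 0 with separate ranges (background 1.59%). This comparison uses the same late libraries as the first, so the shared sign is not a second observation.

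**Figure D3:**
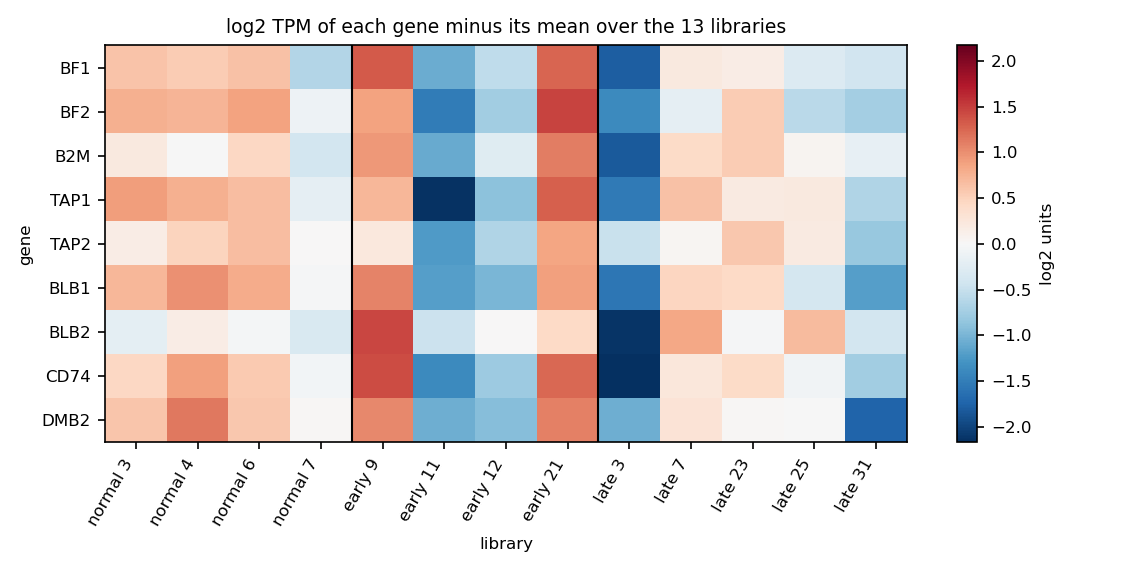
Difference of each tested gene's log2 TPM in a library from that gene's mean over the 13 libraries, with libraries in columns by group. Whole columns share a colour: early 9 and early 21 are above the mean and early 11 and late 3 below it for all 9 genes.

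The larger differences were between libraries of one group. The SD of log2 CPM had a median over the 9 genes of 0.55 in normal ovary, 1.47 in early-stage and 0.89 in late-stage cancer, where the median over all tested genes was 0.33 in normal ovary, 0.37 in early-stage and 0.34 in late-stage cancer. Of all tested genes, 22.4% had a larger SD than the median of the 9 in normal ovary, 1.90% in early-stage cancer and 9.05% in late-stage cancer. TAP1 had the widest spread in early-stage cancer, with an SD of 1.83 and a 10.9-fold range of TPM, and BLB2 the narrowest, with an SD of 1.06 and a 3.78-fold range.

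The same libraries set these extremes for most genes. Early 9 and early 21 each had the highest value of the series for 4 genes, and both lay above early 11 and early 12 for all 9. Late 3 was lowest for 5 genes (BF1, B2M, CD74, BLB1 and BLB2), early 11 for 3 (BF2, TAP1 and TAP2) and late 31 for DMB2. For 7 of the 9 genes the 3 lowest libraries all came from late 3, late 31, early 11 and early 12. The libraries named here were picked from these same values, and the share of all genes with the same order was not counted.

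Over the 13 libraries the log2 CPM of the 9 genes was correlated in all 36 pairs, with Pearson's r from 0.59 to 0.97 (median 0.90; adjusted permutation p from 2.57e-05 to 0.0304) and Spearman's rho from 0.69 to 0.98 (adjusted permutation p from 3.27e-05 to 0.0114). Leaving out the 2 libraries farthest from the median of each x measure gave r from 0.58 to 0.97. After centring on the group means, which removes the differences between groups, r lay between 0.67 and 0.97 (adjusted permutation p from 0.00072 to 0.0377). CD74 and BLB1, which act together in the class II pathway, had an r of 0.96, and CD74 had an r of 0.97 with BF1 of the class I pathway. High correlation was common in these libraries: 743 of 16129 genes (4.61%) had an r of at least 0.9 with CD74, as did 6 of the other 8 genes, and 490 genes (3.04%) had one with B2M, as did 2 of the other 8.

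BLB2 had the lowest correlations. Its 8 pairs had r from 0.59 (with TAP2) to 0.88 (with B2M), whereas the 28 pairs without it lay between 0.79 and 0.97. The genes outside the list with a pattern most like CD74, by Pearson's r of log2 CPM over the 13 libraries, were AFF4, GLI2 and ERBIN (0.985 for each) and RPL24 and ISLR (0.983 for each). Those most like B2M were SLC6A6 (0.986), GIF (0.979), CNR1 (0.978), RBMS3 and PGR (0.976 for each).

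**Figure D4:**
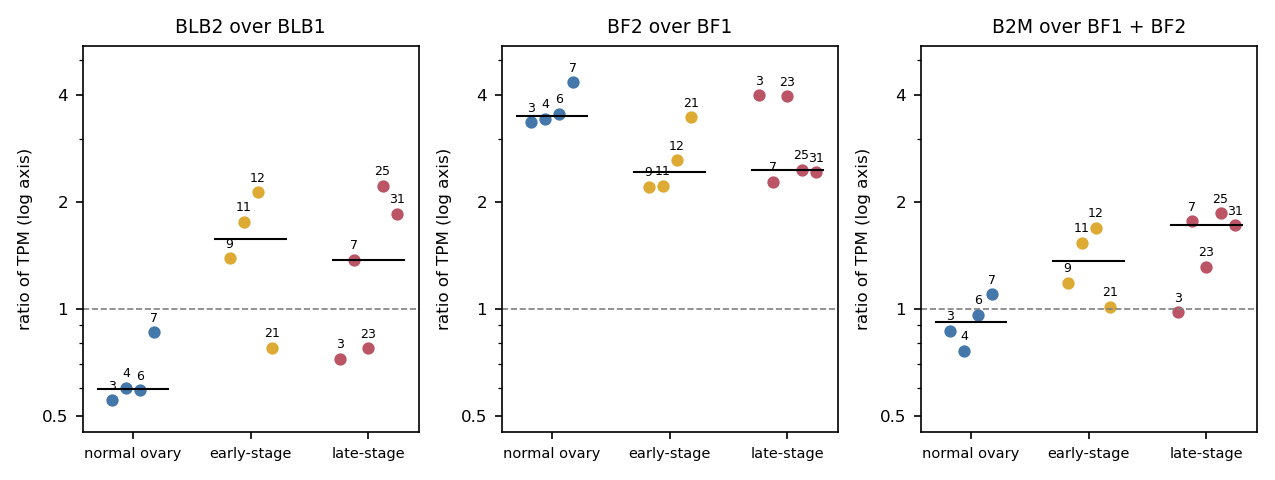
Ratios of TPM within each library (log axis) for BLB2 over BLB1, BF2 over BF1 and B2M over the summed heavy chains, by group; points are libraries with their code number, bars are group medians and the dashed line marks equal levels. BLB2 over BLB1 is below 1 in all 4 normal libraries and above 1 in 3 of 4 early and 3 of 5 late libraries.

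Ratios within a library describe the balance of paralogues or of partner chains apart from their common level. BLB2 over BLB1 was 0.555, 0.602, 0.592 and 0.861 in normal 3, 4, 6 and 7, 1.39, 1.76, 2.13 and 0.778 in early 9, 11, 12 and 21, and 0.724, 1.37, 0.776, 2.22 and 1.85 in late 3, 7, 23, 25 and 31. BLB1 was thus the more abundant class II beta chain in every normal library and BLB2 in 3 of 4 early and 3 of 5 late libraries, with ranges that overlapped through early 21, late 3 and late 23. The ratio is a description with no test, and near-identical stretches of these paralogues could share reads.

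BF2 exceeded BF1 in all 13 libraries, by 3.34-fold to 4.33-fold in normal ovary, 2.21-fold to 3.46-fold in early-stage cancer and 2.28-fold to 3.98-fold in late-stage cancer. B2M over the summed BF1 and BF2 was 0.764 to 1.10 in normal ovary, 1.01 to 1.69 in early-stage cancer and 0.978 to 1.86 in late-stage cancer. The B2M ratio was above 1 in 1 of 4 normal, 4 of 4 early and 4 of 5 late libraries. Its ranges overlapped, with normal 7 at 1.10 above early 21 at 1.01 and late 3 at 0.978. As for BLB2 over BLB1, no ratio was tested. CD74 over the summed BLB1 and BLB2 was 1.45 to 1.61 in normal ovary, 0.880 to 1.99 in early-stage and 0.998 to 1.55 in late-stage cancer, and the normal range lay inside that of the early group.

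How the reads were counted bears on the paralogues. The deposited counts of BF1, BF2, BLB1, BLB2 and B2M were not whole numbers in any of the 13 libraries, and those of CD74 in 12, so reads that match more than one place could have been divided for these genes. TAP2 and DMB1 had whole counts in all 13 libraries, TAP1 in 12 and DMB2 in 11. BF and BLB genes are among the most variable of the chicken genome between individuals, and the match of each bird's alleles to the reference was not tested. In RefSeq's GRCg7b annotation the B locus genes run BLB1, TAPBP, BLB2, BRD2, DMA, DMB1, DMB2, BF1, TAP1, TAP2, BF2, while CD74 lies between RPS14 and TCOF1 and B2M beside PATL2. BLB1 overlaps BLEC1 (54 to 575 counts), DMB1 overlaps DMA (28 to 190 counts) and B2M overlaps TERB2 (1.33 to 15.5 counts). Whether counting used strand is not given in the sources used here, so reads of such partners cannot be told apart.

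The remaining genes of peptide loading were described from fixed lists. Of 7 genes of class I loading (TAPBP, TAPBPL, CALR, CANX, PDIA3, ERAP1 and LNPEP), all 7 were tested and all had a negative log2 fold change in late-stage against normal (median -0.41). The unadjusted p was under 0.05 for 2 of the 7, against 17.9% of all genes, and the adjusted p for 0. Those 2 were the most abundant. CALR, calreticulin, averaged 802 ± 153 CPM in late-stage cancer and 1089 ± 228 CPM in normal ovary, with a log2 fold change of -0.44 (edgeR adjusted p = 0.266). PDIA3, the disulfide isomerase of the loading complex, had -0.41 (edgeR adjusted p = 0.267). In early-stage against normal 4 of the 7 were positive and 3 negative (median 0.03), and in late-stage against early-stage 2 were positive and 5 negative (median -0.20).

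Of 13 listed genes of the class II pathway outside the 10, 7 were in the table and tested. In late-stage against normal 5 were negative and 2 positive, with a median of -0.41, 2 of the 7 at an unadjusted p under 0.05 (17.9% of all genes) and 0 after adjustment. CTSB, a lysosomal protease, averaged 400.4 ± 42.6 CPM in late-stage cancer and 531 ± 102 CPM in normal ovary, a log2 fold change of -0.41 (edgeR adjusted p = 0.274). LGMN, the asparagine endopeptidase, had -0.01. In early-stage against normal 4 were positive and 3 negative (median 0.15), and in late-stage against early-stage 1 was positive and 6 negative (median -0.51). DMA, the alpha chain partner of DMB, was named after its values were seen, and averaged 7.96 ± 3.48 CPM in normal ovary, 6.04 ± 4.14 CPM in early-stage cancer and 4.22 ± 2.27 CPM in late-stage cancer. No alpha chain of the classical class II molecules was analysed here.

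Among 20 listed presenting and related molecules outside the classical genes, 6 were in the table and 5 were tested. All 5 were negative in late-stage against normal (median -1.10), 4 at an unadjusted p under 0.05 (17.9% of all genes) and 0 after adjustment. MHCY11, a class I gene of the separate chicken Y locus, averaged 1.36 ± 0.965 CPM in late-stage cancer and 16.8 ± 11.9 CPM in normal ovary, a log2 fold change of -3.62 (edgeR adjusted p = 0.244). Its ranges of 0.301 to 2.20 TPM in late-stage and 1.53 to 20.2 TPM in normal ovary overlapped. In early-stage cancer MHCY11 lay between 0.982 and 36.4 TPM, and its log2 fold change in late-stage against early-stage was -4.34 (edgeR adjusted p = 0.736). The Y locus holds many near-identical copies, so counts of MHCY11 are uncertain. BG8, of the BG family of the B locus, had a log2 fold change of -1.10 in late-stage against normal (edgeR adjusted p = 0.244).

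Genes that border the B locus genes or lie among them, such as BRD2, did not share one direction. Of 13 listed neighbours 9 were tested, 4 positive and 5 negative in late-stage against normal (median -0.07), 3 and 6 in early-stage against normal (median -0.24), and 6 and 3 in late-stage against early-stage (median 0.30), with 0 called in each (background 0%). At an unadjusted p under 0.05 there were 2, 4 and 0 of the 9 in that order, against 17.9%, 5.04% and 6.34% of all genes. CPM ranges were separate for 0, 1 (KIFC1) and 0 of the 9, against 2.61%, 2.36% and 1.59% of all genes. RACK1, a ribosome-bound scaffold protein, had log2 fold changes of -0.43 in late-stage and -0.12 in early-stage cancer against normal ovary. KIFC1, a mitotic kinesin, had -0.72 and -1.21 in the same comparisons. BLEC1, which overlaps BLB1, had 1.61 and 1.04 (edgeR adjusted p = 0.244 and 0.916), and was named after its values were seen. Whether reads of BLEC1 bear on the level of BLB1 was not tested.

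**Figure D5:**
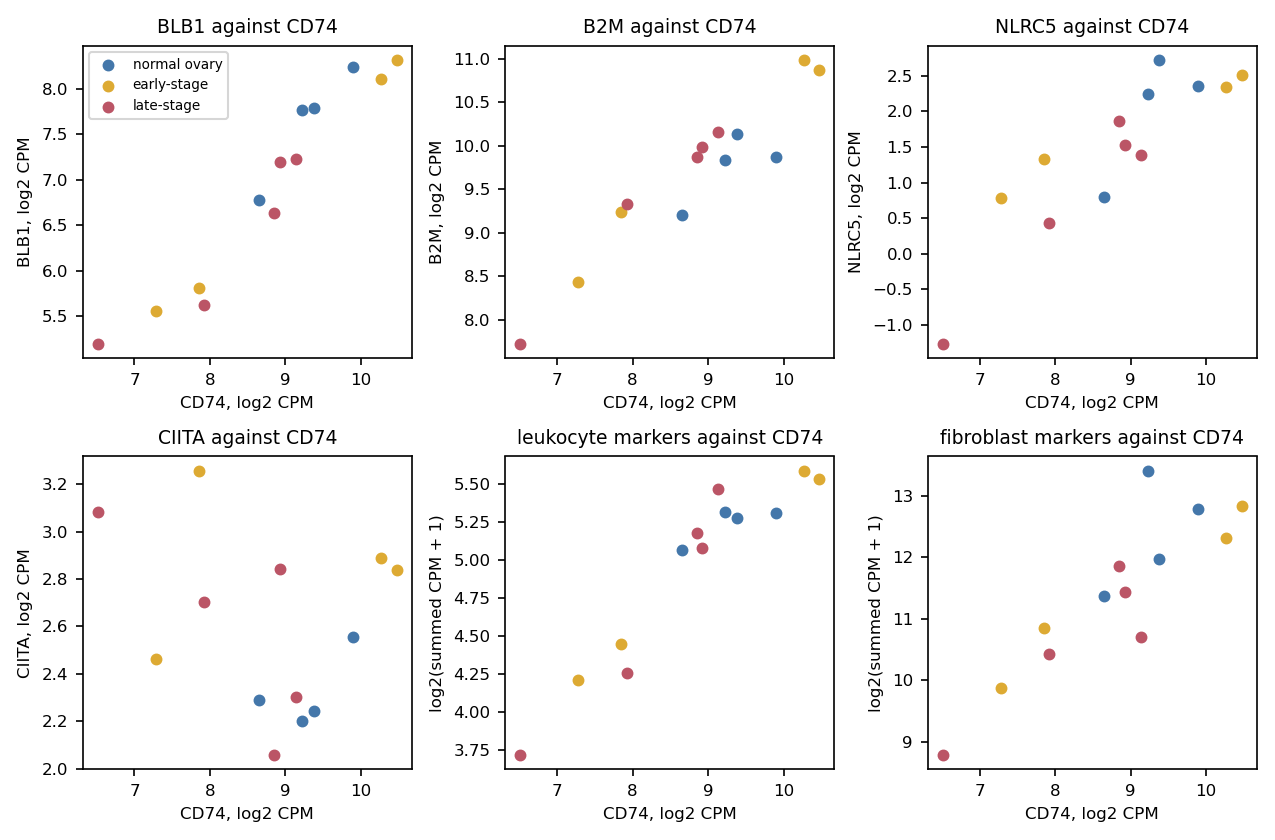
Log2 CPM of BLB1, B2M, NLRC5 and CIITA, and log2 summed CPM of the leukocyte and fibroblast marker lists, against log2 CPM of CD74 in the 13 libraries, coloured by group. BLB1 (r = 0.96), NLRC5 (r = 0.89) and the leukocyte list (r = 0.95) increase along CD74, and CIITA (r = -0.24) does not.

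In mammals MHC genes are switched on by a pair of related activators, CIITA for class II and NLRC5 for class I, together with the RFX complex, NFY, CREB1 and interferon-driven factors. The 14 listed factors were all tested, and 6 were positive and 8 negative in late-stage against normal (median -0.13), 7 and 7 in early-stage against normal (median 0.01), and 3 and 11 in late-stage against early-stage (median -0.08), with 0 called in each (background 0%). At an unadjusted p under 0.05 there were 1, 0 and 1 of the 14 in that order, against 17.9%, 5.04% and 6.34% of all genes. The most abundant were RFXAP, a subunit of RFX, at 188 ± 29.5 CPM in late-stage and 155 ± 15.2 CPM in normal ovary, and IRF8, a factor of myeloid and B cells, at 169 ± 20.2 CPM in late-stage and 137 ± 25.1 CPM in normal ovary. CIITA was read at 4.92 ± 0.580 CPM in normal ovary, 7.30 ± 1.66 CPM in early-stage and 6.15 ± 1.72 CPM in late-stage cancer. NLRC5 stood at 4.45 ± 2.05 CPM in normal ovary, 3.66 ± 1.93 CPM in early-stage and 2.08 ± 1.29 CPM in late-stage cancer. Both activators were chosen for display after their values were seen.

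Each factor was correlated with CD74 and with B2M, 28 relations in one family. CIITA, the class II activator, had no detected correlation with CD74, a target of it in mammals (r = -0.24, rho = -0.18, adjusted permutation p = 0.565 and 0.753), nor within groups (r = -0.23, adjusted permutation p = 0.631). NLRC5 was correlated with CD74 at r = 0.89 and rho = 0.91 (adjusted permutation p = 0.00028 for each), with r = 0.80 without early 11 and late 3 and 0.87 within groups. With B2M, a target of NLRC5 in mammals, the r of NLRC5 was 0.87 (adjusted permutation p = 0.000591), its rho 0.79 (adjusted permutation p = 0.00599) and its r without early 11 and late 3 was 0.71.

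IRF1, an interferon-induced activator, had an r of 0.94 and a rho of 0.96 with B2M (adjusted permutation p = 7.00e-05 and 9.33e-05), and 0.88 without early 11 and late 3. CREB1 and IRF2 each had an r of 0.96 and a rho of 0.96 and 0.94 with CD74 (adjusted permutation p = 7.00e-05 for each r and 9.33e-05 for each rho), and 0.92 and 0.93 without those libraries. IRF8 ran the other way, with an r of -0.82 and a rho of -0.74 with CD74 (adjusted permutation p = 0.00191 and 0.0128), and -0.64 without those libraries. NFYA, NFYB and NFYC had r between -0.14 and -0.02 with CD74 and B2M (adjusted permutation p of 0.801 to 0.948) and rho between -0.23 and 0.01 (adjusted permutation p of 0.642 to 0.993). Of all genes, 4.61% had an r of at least 0.9 with CD74 and 3.04% had one with B2M. These shares do not say how common the negative r values or those under 0.9 are.

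Markers of some cell types varied with CD74 between libraries. Of 7 listed leukocyte markers 5 were in the table and passed the filter, none at 0 in every library, and their summed level was 32.6 to 38.8 CPM in normal ovary, 17.5 to 47.2 CPM in early-stage and 12.2 to 43.3 CPM in late-stage cancer. Libraries at the top and bottom for CD74 were also at the top and bottom for this sum, with 45.3 and 47.2 CPM in early 9 and 21, 17.5 and 20.8 CPM in early 11 and 12, and 12.2 CPM in late 3. Across the 13 libraries the leukocyte sum had an r of 0.95 and a rho of 0.93 with CD74 (adjusted permutation p = 0.00012 and 0.00072), with r = 0.89 without early 11 and late 3 and 0.95 within groups. With B2M it had an r of 0.91 and a rho of 0.90 (adjusted permutation p = 0.00012 and 0.00084), and r = 0.79 without those libraries.

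The fibroblast list, 6 of 6 in the table and past the filter, summed to 2649 to 10834 CPM in normal ovary, 940 to 7274 CPM in early-stage and 442 to 3719 CPM in late-stage cancer. It had an r of 0.88 and a rho of 0.87 with CD74 (adjusted permutation p = 0.00064 and 0.00168; r = 0.74 without early 11 and late 3). The B cell list, with 11 of 12 markers in the table and 7 past the filter, summed to 1295 to 5703 CPM in normal ovary, 1132 to 4931 CPM in early-stage and 127 to 2921 CPM in late-stage cancer. IGLL1, at 3048 ± 2158 CPM, made up most of the B cell sum in normal ovary. The sum's r with CD74 was 0.85 and its rho 0.77 (adjusted permutation p = 0.0009 and 0.0124; r = 0.77 without those libraries). Smooth muscle markers, 5 of 6 in the table and past the filter, summed to 418 to 8415 CPM in normal ovary, 264 to 2976 CPM in early-stage and 74.4 to 1113 CPM in late-stage cancer. Their r with CD74 was 0.80 and their rho 0.84 (adjusted permutation p = 0.0035 and 0.0039; r = 0.65 without those libraries). With B2M the fibroblast, B cell and smooth muscle sums had r of 0.79, 0.81 and 0.67 (adjusted permutation p = 0.0035, 0.00357 and 0.0228). Their rho with B2M was 0.63, 0.61 and 0.58 (adjusted permutation p = 0.0667, 0.0727 and 0.088). Without early 11 and late 3 their r with B2M was 0.50, 0.59 and 0.37. In late-stage against normal, log2 fold changes were negative for 4 of 5 leukocyte, 6 of 6 fibroblast, 5 of 7 B cell and 5 of 5 smooth muscle markers tested, with 0 called after adjustment (background 0%). The same count was 7 of 8 T cell, 9 of 15 macrophage, 6 of 7 endothelial and 4 of 4 red blood cell markers. It was 2 of 6 dendritic cell, 4 of 8 follicle, 2 of 4 epithelial and 1 of 3 carcinoma markers. Of all genes tested 49.1% were lower in late-stage cancer.

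The sum of the epithelial markers was nearly all EPCAM, which averaged 1089 ± 193 CPM in late-stage cancer and 703 ± 255 CPM in normal ovary. With 6 of 7 in the table and 4 past the filter (CLDN3 and CLDN4 were not), they summed to 674 to 1133 CPM in normal ovary, 725 to 1154 CPM in early-stage and 1058 to 1454 CPM in late-stage cancer. They had an r of -0.80 and a rho of -0.82 with CD74 (adjusted permutation p = 0.0035 and 0.0047; r = -0.66 without early 11 and late 3), a value that describes EPCAM more than the list. With B2M the r was -0.71 and the rho -0.64 (adjusted permutation p = 0.0137 and 0.0667; r = -0.48 without those libraries). In late-stage against normal 2 of the 4 tested were positive and 2 negative (median -0.28), with EPCAM at 0.63 and the keratins KRT8 and KRT18 at -0.72 and -1.13, and 0 called after adjustment. The T cell list (12 of 13 in the table, 8 past the filter) had an r of -0.32 and a rho of -0.07 with CD74 (adjusted permutation p = 0.385 and 0.856; r = 0.17 without those libraries). CD2, at a mean of 72.6 CPM, made up most of the T cell sum of 76.5 to 128 CPM in normal ovary. CD3D and CD3E averaged 5.18 and 9.63 CPM there. The r of the T cell list thus describes CD2 more than the list, and its other markers were not correlated with CD74 separately. Macrophage markers, 15 of 16 in the table and all 15 past the filter, had an r of 0.50 and a rho of 0.63 with CD74 (adjusted permutation p = 0.136 and 0.0667; r = 0.66 without those libraries). CSF1R, at 100 ± 21.5 CPM, was the largest part of the macrophage sum of 260 to 338 CPM in normal ovary. MERTK, LAPTM5 and MARCO followed at 48.8, 38.3 and 30.1 CPM, whereas C1QA, C1QB and C1QC averaged 8.45, 4.75 and 9.62 CPM there. The r of the macrophage list thus describes its abundant markers more than the C1Q genes, which were not correlated with CD74 separately. Dendritic cell markers, with 10 of 11 in the table and 6 past the filter (FLT3, XCR1, CCR7 and CD86 were not), had an r of 0.12 and a rho of 0.24 (adjusted permutation p = 0.698 and 0.473; r = 0.17 without those libraries). ZBTB46, IRF8 and ID2, at 149 ± 10.97, 137 ± 25.1 and 62.1 ± 13.2 CPM in normal ovary, made up most of that sum, whereas CD40, CD83 and BATF3 averaged 4.48, 2.31 and 1.70 CPM there. Endothelial markers, 7 of 7 in the table and past the filter, had an r of 0.68 and a rho of 0.48 with CD74 (adjusted permutation p = 0.0215 and 0.175; r = 0.67 without those libraries). With B2M their r was 0.69 and their rho 0.39 (adjusted permutation p = 0.0215 and 0.266). EMCN, at 224 ± 36.2 CPM in normal ovary, was the largest part of the endothelial sum of 370 to 459 CPM there. It was the 1 endothelial marker of 7 with a positive log2 fold change in late-stage against normal (0.32). The other lists (follicle, carcinoma and red blood cells) had r from -0.30 to 0.54 with CD74, and rho from -0.41 to 0.45 (adjusted permutation p of 0.102 to 0.385 and 0.199 to 0.473). Without early 11 and late 3 their r with CD74 was farther from 0 for follicle (-0.76) and red blood cell markers (0.76), and was -0.20 for carcinoma markers. With B2M, also without those libraries, r was -0.61, 0.55 and 0.03 in the same order. The carcinoma list had 3 of 4 markers in the table and past the filter. WT1, at a mean of 321 CPM, made up nearly all of its sum of 237 to 411 CPM in normal ovary. The r of the carcinoma list thus describes WT1 more than the list. There were 24 relations of a marker list with CD74 or B2M in one family. No list had a marker at 0 in every library. The part of these cell types in the levels of the antigen presentation genes was not tested.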

How the data were processed

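The authors deposited estimated counts per gene, of which 30.1% were not whole, and TPM for the same genes; small RNA values were not used. FastQC, BWA and GATK 3.3.0 appear, per the submitters' processing notes, without a stated role. No source used here gives the counting program, its handling of multiply matching reads, or the genome build. Sample codes match 2 records each, so columns were assigned to groups by code.

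Counts were rounded and fitted with edgeR 4.0.16 in R 4.3.3 (13 libraries in one robust quasi-likelihood fit, TMM scaling, filterByExpr with minimum count 10), with Benjamini-Hochberg adjustment over 16130 genes and a threshold of 0.05. The edgeR test was first tried on simulated counts, and the correlations were not tested in this way. Alternatives were other scalings, no filter, DESeq2 1.42.0, limma 3.58.1 (voom with quality weights; trend on log2(TPM + 1)), 2 groups only, each library left out and a replicate block. Correlations used log2 CPM (prior count 2) and 100000 permutations (smallest p 1e-05), with adjusted p within each family. Marker sums entered as log2(sum + 1).

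The members and lists were chosen with earlier results of these data known. Pathway genes named are the 2 of highest mean CPM per list, unless stated. Of the tables' symbols, 25075 matched RefSeq's GRCg7b table, used for names and gene order alone.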

Additional observations from a re-analysis of the deposited data

Results flagged for a closer look

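In groups of 4 or 5 libraries, 45 sets of values (15 measures in 3 groups) were searched for a library far from the others by Dixon's criterion, which chance meets in about 1 in 20 groups; 3 were found, and all were normal 7. BF1 in normal 7, at 95.6 TPM, lay below the other normal libraries by 0.913 of the group's whole range. BF2 in normal 7, at 414 TPM, lay below them by 0.835 of the range, where the critical value for 4 samples is 0.829. The ratio of BLB2 to BLB1 in normal 7, at 0.861, lay above the others by 0.848 of the range. In late-stage against normal without normal 7, the log2 fold changes were -1.05 for BF1, -1.27 for BF2 and -1.36 for BLB1 (edgeR adjusted p = 0.246, 0.195 and 0.166). Normal 7 was the lowest normal library for all 3 of these genes, so a larger difference without it was set beforehand. BLB1 itself was not flagged.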

How the results depend on the processing

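The count of called antigen presentation genes was 0 in each of the 3 comparisons under all alternatives run (21 for late-stage against normal, 20 for the others). Over all genes, late-stage against normal gave 126 calls with DESeq2, 893 with limma voom and 113 by edgeR without normal 7, against 0 in the edgeR fit of all libraries. The lowest adjusted p of a listed gene was 0.166 (BLB1, late-stage against normal, without normal 7). Of the log2 fold changes under alternatives, 31 changed sign, all from values that had not passed the test, and the cause was not tested. For late-stage against normal, BLB2 was 0.027 with library size only, 0.044 with voom and 0.0030 with the 2 groups only, and ran from -0.27 to 0.26 with a library left out; B2M ran from -0.35 to 0.069. On log2(TPM + 1), early-stage against normal gave -0.055 for BF1, -0.55 for BF2 and -0.34 for CD74, and late-stage against early-stage 0.094 for TAP2. With a library left out, early-stage against normal ran from -0.091 to 0.67 for BF1, -0.58 to 0.39 for BF2, -0.29 to 0.55 for CD74, -0.55 to 0.14 for DMB2, -0.86 to 0.19 for TAP1, -0.77 to 0.040 for TAP2 and -0.76 to 0.031 for BLB1. Late-stage against early-stage ran from -1.03 to 0.038 for TAP1 and -0.56 to 0.25 for TAP2.

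Codes 3 and 7 occur in both late-stage and normal groups; deviations of same-numbered libraries had r = 0.00 and -0.14 over 16130 genes, so 2 shared numbers do not show pairing. With the replicate block on those 4 libraries, 0 genes of the list were called and log2 fold changes lay between -1.24 (CD74) and -0.46 (TAP2).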
